A study of Mus musculus with 35 samples.

Results

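The genes described here encode voltage-gated and transient receptor potential (TRP) ion channels. They were chosen by symbol: every probe of the authors' normalized table with 1 symbol that begins with Kcn, Scn and a digit, Cacn, Clcn, Hcn, Trpc, Trpv or Trpm. The rule took 47 of 12688 probes. One of them, Hcngp, is a transcriptional regulator by its deposited name and is now called Sap30bp, so it was kept apart, and 46 channel subunits of 46 genes remained. Classed by symbol, they held 7 pore-forming voltage-gated potassium subunits, 4 potassium channel auxiliary subunits and 2 members of the calcium- or sodium-activated potassium class. There were also 4 inward rectifiers, 2 two-pore potassium channels, 2 sodium channel subunits and 3 calcium channel pores. The rest were 10 calcium channel auxiliary subunits, 4 Clcn chloride proteins and 8 TRP channels. The RefSeq annotation lists 170 protein-coding genes with these symbol beginnings, most of which were not analysed here, and no Hcn pacemaker channel was among the members.

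All samples came from mice homozygous for TH-MYCN, a transgene in which the tyrosine hydroxylase promoter drives human MYCN in sympathetic neuroblasts and neuroblastomas form. No group without the transgene was analysed here. Set 2 held 11 single-colour arrays: sympathetic ganglia with foci of neuroblast hyperplasia at birth (day 0, n = 5), at 7 days (n = 2) and at 14 days (n = 2), plus 2 small neuroblastomas harvested after weaning (0.08 g at 42 days of life and 0.1 g at 28 days). Set 1 comprised 24 tumors graded by weight, 6 a class: small (0.05 to 0.1 g, 28 to 42 days of life), medium (0.24 to 0.46 g, 35 to 42 days), large (0.76 to 1.3 g, 35 to 46 days) and very large (1.6 to 3 g, 35 to 45 days). RNA came from frozen tissue sections, so each array mixes neuroblasts with whatever other cells the section held. Levels are log2 intensities, a difference of 1 is a doubling, and the levels of different probes are not comparable with each other. A difference was called where limma's moderated test had a Benjamini-Hochberg adjusted p under 0.05 over all probes of the set. The p-values measure only the spread between these samples, which may be technical where specimens were not separate animals.

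Sympathetic neurons fire by opening sodium channels, and calcium that enters through voltage-gated calcium channels then releases noradrenaline. Potassium channels end the spike and hold the resting potential: A-type channels (Kcnd) delay firing, and large-conductance calcium-activated (BK) channels, built from the pore Kcnma1 and beta subunits such as Kcnmb4, couple calcium entry to repolarization. Auxiliary subunits set how many pores reach the membrane and how they gate, and TRP channels pass cations in response to heat, lipids, oxidants or calcium.

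Several arrays stood apart. Day 0 replicates 1 and 2 carry specimen names of one number series and replicates 3 to 5 of another: correlations over all probes were 0.955 within the first pair, 0.965 to 0.985 within the other series, and 0.941 to 0.954 between them. Both tumors of set 2 carry in their titles the specimen names of small replicates 6 and 3 of set 1, yet over all probes they correlated at 0.889 and 0.896 with the set 1 array of the same name. With the other small tumors of set 1 they correlated at 0.871 to 0.886 and at 0.880 to 0.897, so the array of the same name ranked 1 and 2 among 6. Different small tumors within set 1 correlated at 0.945 to 0.965. The correlations that involve set 1 tumors were taken over 32996 probes, with all 35 arrays normalized together. The 2 tumors of set 2 correlated with each other at 0.989. That value was taken over 12688 probes as normalized by the authors, so it is not directly comparable with the others. On a common scale the mean log2 level of 8 skeletal muscle markers was 17.04 on the set 2 array and 10.95 on the set 1 array of small replicate 3, a difference of 6.09, so these 2 arrays go against each other for muscle. For small replicate 6 it was 17.08 and 17.95. Dbh, which makes noradrenaline, was lower by 3.55 and 2.58 on the set 2 arrays of these names. Over the 46 channel genes, 21 and 19 differed by more than 1 between the 2 arrays of a name. Levels were therefore compared only within a set, and the tumor against ganglion results are given beside what the set 1 arrays of small tumors show on the common scale. The labelled tissue carried its defining marker: Th, the first enzyme of noradrenaline synthesis, had group means between the percentiles 93.3 and 99.9 of all probes. Dbh did not in set 2 tumors, where its mean lay at percentile 9.55, against 83.3 in the small tumors of set 1.

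In set 2 tumors, 17 of the 46 channel genes differed from day 0 ganglia, 6 higher and 11 lower, which is 37% of them beside 37.3% of all probes (18.4% higher and 18.9% lower). Against day 14 ganglia 13 differed, 3 higher and 10 lower, beside 39.7% of all probes (19.9% higher and 19.9% lower). Within the ganglia, 7 differed on day 14 from day 0 (5 higher and 2 lower, beside 10.2% of probes, 5.56% higher and 4.63% lower) and 3 on day 7 (1 higher and 2 lower, beside 1.99%, 1.47% higher and 0.512% lower). Over the 4 size classes, very large tumors differed from small ones in 5 (2 higher and 3 lower, beside 4.69%, 2.25% higher and 2.45% lower). Large ones differed from small ones in 3, all lower (beside 2.31%, 0.949% higher and 1.36% lower), and medium ones in 1, lower (beside 0.961%, 0.318% higher and 0.643% lower). The median log2 difference of the 46 was -0.23 in tumors against day 0 ganglia, where that of all probes was 0.01, and -0.15 against day 14 ganglia, where that of all probes was 0.06. The share called in tumors against day 0 ganglia was near that of all probes. Against day 14 ganglia it was 28.3% (6.52% higher and 21.7% lower), below that of all probes, and in very large and large against small tumors it was 10.9% and 6.52%, above that of all probes. None of these shares was tested. By mean level 0 of the 46 lay in the lowest 25% of set 1, so all its probes are an unlike reference. With the lowest 25% of probes left out, 1776 of 24747 were called in very large against small tumors, beside 1549 of all 32996. In large against small tumors 890 of 24747 were then called, beside 761 of all 32996. On unnormalized intensities the all-probe median was 0.92 higher in tumors than in day 0 ganglia. The split of the 46 was then 11 higher and 5 lower, where that of all 12688 probes was 3958 higher and 423 lower. In sections, fewer cells of a type and less RNA per cell cannot be told apart. With only the first-named day 0 specimen series as the reference, 21 of the 46 differed in tumors, 8 on day 14 and 2 on day 7. Of all 12688 probes 5473, 1362 and 310 were then called. With only the other series 18, 11 and 10 differed, beside 5722, 3504 and 3142 of all probes, so more calls came over all probes too. Without either one of the tumor arrays 13 differed from day 0. With groups of 2 arrays a lack of overlap is common: among all probes 48.8% did not overlap between tumors and day 0 ganglia, 79.1% between tumors and day 14 ganglia, 29.3% between day 14 and day 0, and 20.4% between day 7 and day 0. No detection call per probe was used here, and 26 of the 46 lay in the lowest 25% of the set 2 table by mean level.

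**Figure D1:**
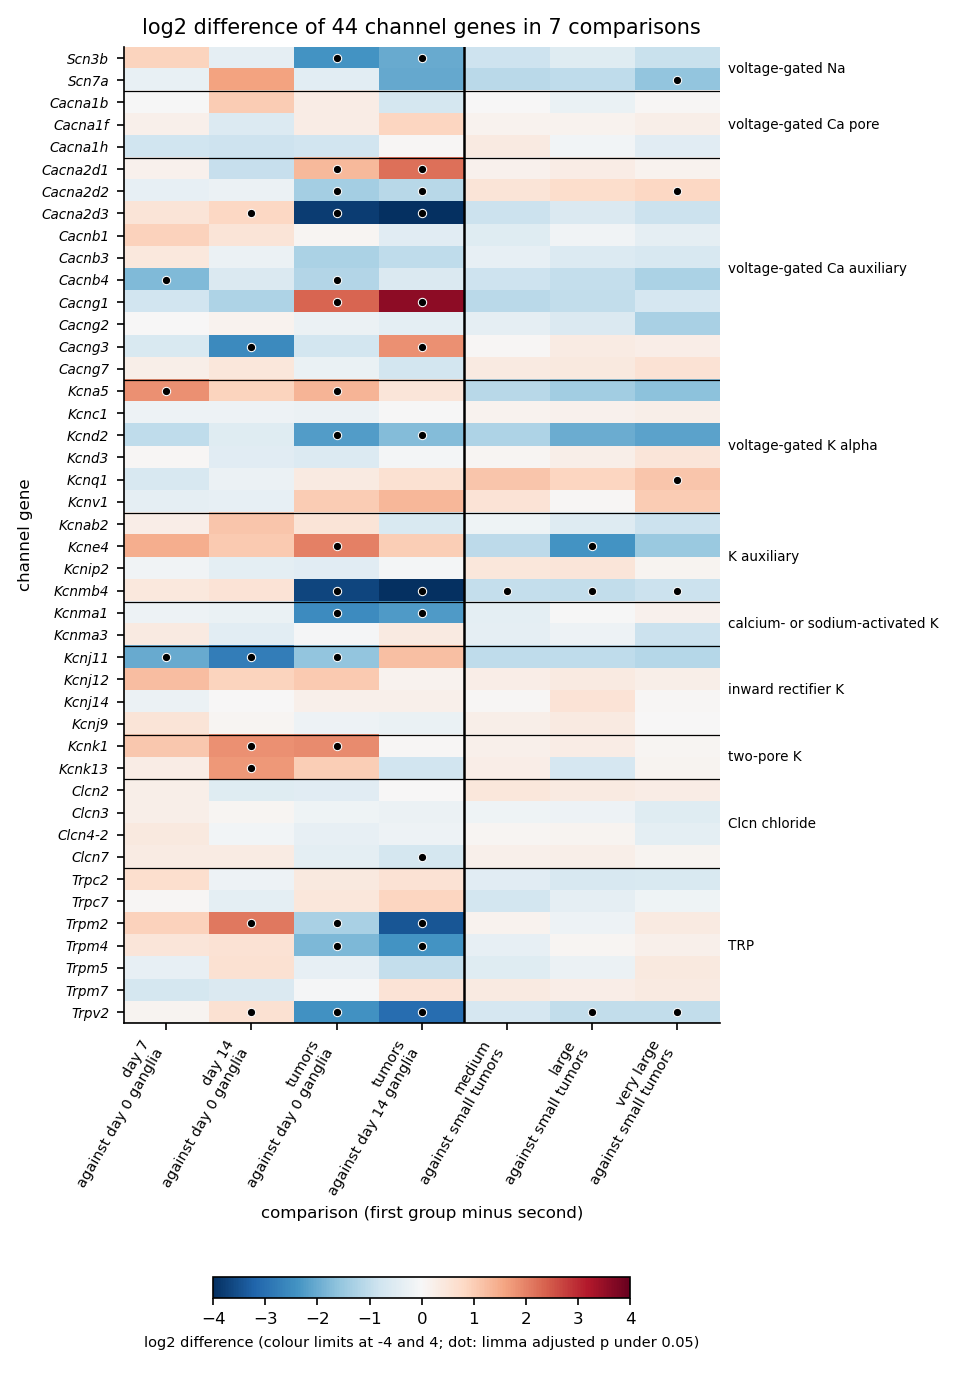
Each row is 1 of 44 channel genes, ordered by channel class, and each column a comparison, the first-named group minus the second (left of the line set 2, right of it set 1). Colour is the log2 difference, limited at -4 and 4, and a dot marks an adjusted p under 0.05. The strongest colours lie in the tumor against ganglion columns, in Cacna2d3, Kcnmb4, Trpm2, Trpv2 and Cacng1.

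The calcium- and voltage-gated BK channel was lower in set 2 tumors in both of its measured subunits. Kcnmb4 (probe 853114), the neuronal beta4 subunit that slows BK gating, read 15.72 and 15.73 in the tumors. In the ganglia it read 19.27, 19.18, 19.46, 19.29 and 19.74 on day 0, 19.93 and 19.70 on day 7, and 20.05 and 19.82 on day 14. Every ganglion array lay above both tumors, and the ganglion stages lay close together. The difference was -3.67 ± 0.16 (SE) against day 0 ganglia, 12.7-fold lower (adjusted p = 1.71e-08), and -4.22 ± 0.20 against day 14 ganglia (3.57e-08). The pore Kcnma1 (probe 924022) read 11.77 and 11.87 in the tumors, against 14.02, 14.28, 14.46, 15.06 and 13.92 in day 0 ganglia and 14.01 and 14.14 in day 14 ganglia. Again no ganglion array reached down to the tumors. Kcnma1 was at -2.53 ± 0.32 against day 0 ganglia (adjusted p = 5.1e-05) and at -2.26 ± 0.38 against day 14 ganglia (0.000505). Both genes kept these calls under every normalization, filter and left-out array tried. Kcnma3 (now Kcnu1), a sperm potassium channel, was put in the calcium- or sodium-activated class by its symbol alone. It read 11.81 and 11.05 in tumors and 10.49 to 12.35 in day 0 ganglia, and was not called at any stage.

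The alpha2delta subunits, which carry calcium channel pores to the membrane and bind gabapentin-type drugs in some members, did not move together. Cacna2d3 (probe 366666) read 14.08 and 13.89 in set 2 tumors, against 18.12, 17.37, 17.81, 17.49 and 18.13 in day 0 ganglia and 18.63 and 18.63 in day 14 ganglia. This was the largest fall among the channel genes, -3.80 ± 0.22 against day 0 (14-fold, adjusted p = 9.01e-08) and -4.65 ± 0.26 against day 14 (25-fold, 1.17e-07). Within the ganglia Cacna2d3 was higher on day 14 than on day 0 by 0.84 ± 0.22 (adjusted p = 0.0295), with groups that did not overlap. That call was lost without day 0 replicate 3 (adjusted p = 0.059), with arrays centred on their medians (0.176) and without limma's intensity trend (0.0629). Without either day 14 array it was lost too, with differences of 0.84 and 0.84. Cacna2d2 (probe 561634) read 13.11 and 13.24 in tumors, against 14.19 to 14.63 in day 0 ganglia and 14.61 and 13.95 in day 14 ganglia. It fell by 1.35 against day 0 (SE 0.25, adjusted p = 0.000912) and by 1.10 against day 14 (SE 0.29, adjusted p = 0.0101). Without day 14 replicate 1 or without tumor replicate 1 the day 14 call was lost (adjusted p = 0.127 and 0.0666). Cacna2d1 (probe 299366), an alpha2delta subunit that muscle also expresses, ran the other way. It read 14.29 and 14.38 in tumors, against 12.37 to 14.17 in day 0 ganglia and 12.69 and 11.58 in day 14 ganglia. It was higher by 2.20 ± 0.57 than on day 14 (adjusted p = 0.00863), which missed the threshold without day 14 replicate 2 (0.0941) or tumor replicate 2 (0.0509). Against day 0 its adjusted p was 0.0499 with a difference of 1.29, and of 7 fits that left out 1 array only 1, that without day 0 replicate 4, kept the call (the others gave 0.0551 to 0.213).

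Among the other auxiliary calcium channel subunits, Cacng1 (probe 431974), the gamma subunit of the skeletal muscle calcium channel, was 13.99 and 13.71 in set 2 tumors, against 10.65 to 12.02 in day 0 ganglia and 10.62 and 9.89 in day 14 ganglia. The groups did not overlap, and the differences were 2.34 ± 0.48 (adjusted p = 0.00191) and 3.59 ± 0.57 (0.000343). Skeletal muscle markers moved with it: against day 0 as against day 14 ganglia, 7 of the 8 measured were higher and 1 lower in set 2 tumors. Of all probes 18.4% were higher and 18.9% lower against day 0, and 19.9% each way against day 14. The mean log2 level of these markers was 18.11 to 18.17 in tumors, 13.13 to 14.35 in day 0 ganglia and 12.92 to 13.07 in day 14 ganglia. In set 1 the same markers ranged from 10.93 to 18.22 in small tumors, and Cacng1 read 10.82 in small replicate 3, which had the lowest marker level of its class, and 12.75 in small replicate 4, which had the highest. In very large tumors the array with the most muscle signal, replicate 2 at 15.89, also had the highest Cacng1 of all 24 tumors, 13.57. The part of muscle in the Cacng1 difference was not tested. Cacng3, a neuronal gamma subunit that traffics AMPA receptors, was 11.02 and 10.11 in day 14 ganglia, against 12.14 to 13.68 in day 0 ganglia, a log2 difference of -2.55 (SE 0.44, adjusted p = 0.00416). That call was lost without day 14 replicate 2 (0.119). In tumors Cacng3 was 12.51 and 12.27, higher than in day 14 ganglia by 1.83 ± 0.52 (adjusted p = 0.0147), a call lost without day 14 replicate 2 (0.13) or without either tumor (0.0871 and 0.0521). Cacnb4, a cytoplasmic beta subunit, was 10.81 and 10.75 in tumors, against 11.44 to 12.39 in day 0 ganglia (-1.17 ± 0.38, adjusted p = 0.0288). This call was lost without day 0 replicate 1 or 4 (0.0511 and 0.0548) and with arrays centred on their medians (0.175). It was also lost when quantile normalized again here (0.12) and with only day 0 replicates 1 and 2 as the reference (0.0567). Without either tumor it was lost too, with differences of -1.20 and -1.14. On day 7 Cacnb4 read 10.52 and 9.87, -1.76 ± 0.38 from day 0 (adjusted p = 0.0365). The day 7 call was lost without day 0 replicate 3 or 4 (0.0802 and 0.0749) and with arrays centred on their medians (0.176). Without either day 7 array it was lost too, with differences of -2.09 and -1.43. Of the remaining members, Cacnb1, Cacnb3, Cacng2 and Cacng7 were not called at any stage. Cacnb3 sat on the intensity floor of 9.78 in both tumors, so its difference from day 0 (-1.28, adjusted p = 0.0952) is limited by the floor.

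**Figure D2:**
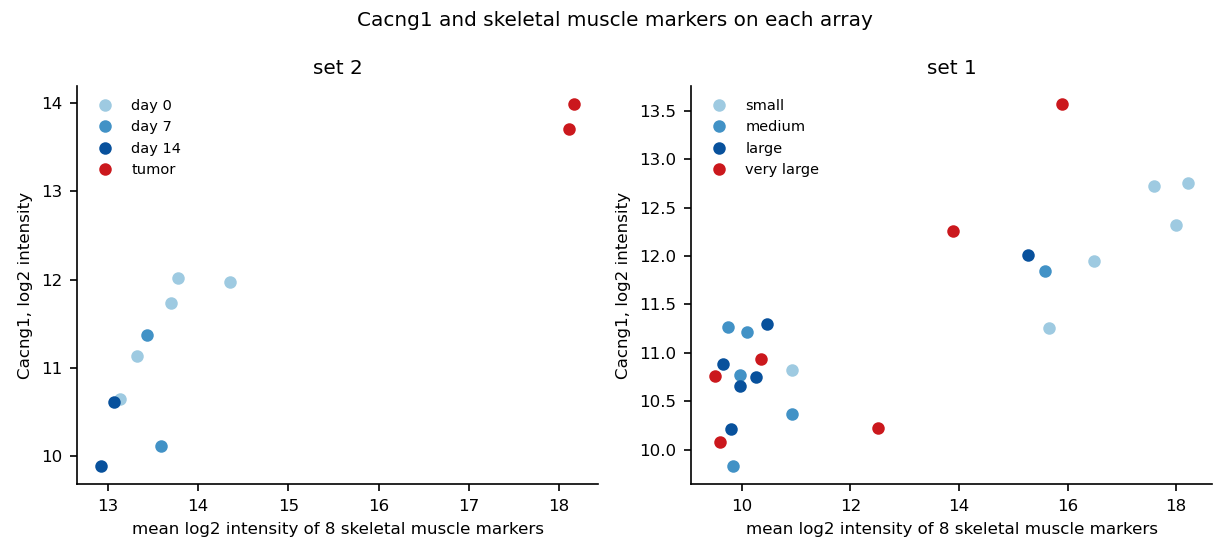
Each point is 1 array, with the mean log2 intensity of 8 skeletal muscle markers on the horizontal axis and the log2 intensity of Cacng1 on the vertical axis, for set 2 (left) and set 1 (right). The tumors of set 2 lie apart at marker levels of 18.11 and 18.17, and in set 1 the small tumors span 10.93 to 18.22.

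None of the 3 measured calcium channel pores was called in any comparison. They were Cacna1b, the N-type pore that serves noradrenaline release, Cacna1h, a T-type pore that opens near rest, and Cacna1f, a retinal L-type pore. Cacna1b read 11.07 and 11.28 in set 2 tumors, against 9.78 to 11.55 in day 0 ganglia and 11.98 and 11.79 in day 14 ganglia. Its levels overlapped with those of day 0, its log2 difference from it was 0.30 ± 0.48, and that from day 14 was -0.71 ± 0.58 (adjusted p = 0.362). Cacna1h was at 11.03 and 11.90 in tumors and at 11.14 to 13.76 in day 0 ganglia, a difference of -0.78 ± 0.56 (adjusted p = 0.304).

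Of the sodium channel subunits, Scn3b (probe 619924), a beta subunit that modulates the gating of neuronal sodium pores, was 10.07 on both tumor arrays, against 11.78 to 13.12 in day 0 ganglia, 12.75 and 13.99 in day 7 ganglia, and 12.08 and 12.12 in day 14 ganglia. All ganglia lay above the tumors. The differences were -2.40 ± 0.43 against day 0 (adjusted p = 0.00081) and -2.03 ± 0.52 against day 14 (0.00745). With any 1 array left out they stayed at -2.57 to -2.24 and at -2.05 to -2.02. Both tumor arrays lay close to the intensity floor of 9.78. On unnormalized intensities the day 14 call was lost (-1.83, adjusted p = 0.0873). Scn7a, an atypical sodium channel that senses sodium concentration and is carried by glia and other cells, had 10.51 and 10.12 in tumors. It spread from the floor at 9.78 to 12.82 in day 0 ganglia, reached 12.22 and 12.50 on day 14, and was not called at any stage (-2.04 ± 0.86 in tumors against day 14, adjusted p = 0.079).

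Among voltage-gated potassium pores, Kcnd2 (probe 385149), an A-type channel, was 15.44 and 15.03 in set 2 tumors, against 16.50, 17.22, 17.80, 17.88 and 17.91 in day 0 ganglia and 17.24 and 16.69 in day 14 ganglia. The tumors lay below every ganglion, at -2.23 ± 0.35 against day 0 (adjusted p = 0.000301) and -1.73 ± 0.42 against day 14 (0.00559). Without day 14 replicate 1 or tumor replicate 2 the second call missed the threshold (0.0572 and 0.0527). Kcna5, a fast delayed rectifier also found in muscle and macrophages, had 14.63 and 14.39 in tumors, against 12.68 to 13.53 in day 0 ganglia, 14.99 and 14.98 in day 7 ganglia and 13.94 and 14.15 in day 14 ganglia. It was higher in tumors than on day 0 by 1.35 ± 0.26 (adjusted p = 0.00139) and already higher on day 7 by 1.83 ± 0.26 (0.0062), a call lost without either day 7 array (0.0667 and 0.0877). Kcnc1, Kcnd3, Kcnq1 and the silent subunit Kcnv1 were not called at any stage. Kcnc1, which serves fast repolarization, read 13.07 and 13.38 in tumors and 12.94 to 13.91 in day 0 ganglia.

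Of the 6 inward rectifier and two-pore channels, 2 were called higher and 1 lower on day 14 than on day 0. Among all probes, 5.56% were higher and 4.63% lower. Kcnk1 (probe 380968), a two-pore leak channel, was 12.45, 11.21, 12.26, 12.13 and 12.20 on day 0, 13.08 and 13.21 on day 7, 13.89 and 13.88 on day 14, and 14.02 and 13.84 in tumors. No stage overlapped with day 0. It was higher than on day 0 by 1.83 ± 0.32 on day 14 (adjusted p = 0.00483) and by 1.88 ± 0.32 in tumors (0.000588), and its log2 difference between tumors and day 14 ganglia was 0.05. The day 14 call rested on having both arrays of that day (adjusted p = 0.0531 and 0.0888 with 1). Kcnk13, another two-pore channel, had 13.35 and 13.23 on day 14, against 11.06 to 11.96 on day 0 (1.74 ± 0.38, adjusted p = 0.0142), also lost without either day 14 array (0.122 and 0.154). Kcnj11 (probe 671398), the pore of ATP-sensitive potassium channels, ran the other way, at 14.76, 13.38, 13.41, 12.78 and 13.95 on day 0, 11.44 and 11.81 on day 7, 10.78 and 10.97 on day 14, and 12.14 and 12.01 in tumors. All later arrays lay below all day 0 arrays. Kcnj11 fell by 2.78 on day 14 (SE 0.44, adjusted p = 0.0025), which held in every fit without 1 array. It fell by 2.03 on day 7 (SE 0.44, adjusted p = 0.0365), a call lost without day 0 replicate 3 or 5 (0.0661 and 0.066) or either day 7 array (0.284 and 0.18). It fell by 1.58 in tumors (SE 0.44, adjusted p = 0.0123, lost without either tumor at 0.0725 and 0.096). The other inward rectifiers, Kcnj9, Kcnj12 and Kcnj14, were not called, and Kcnj14 lay at the floor on 3 of 5 day 0 arrays. Of the auxiliary subunits, Kcne4, which inhibits Kcnq1 and other potassium pores, was 13.66 and 13.38 in tumors, against 10.78 to 12.16 in day 0 ganglia (2.03 ± 0.41, adjusted p = 0.0017), and Kcnab2 and Kcnip2 were not called.

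**Figure D3:**
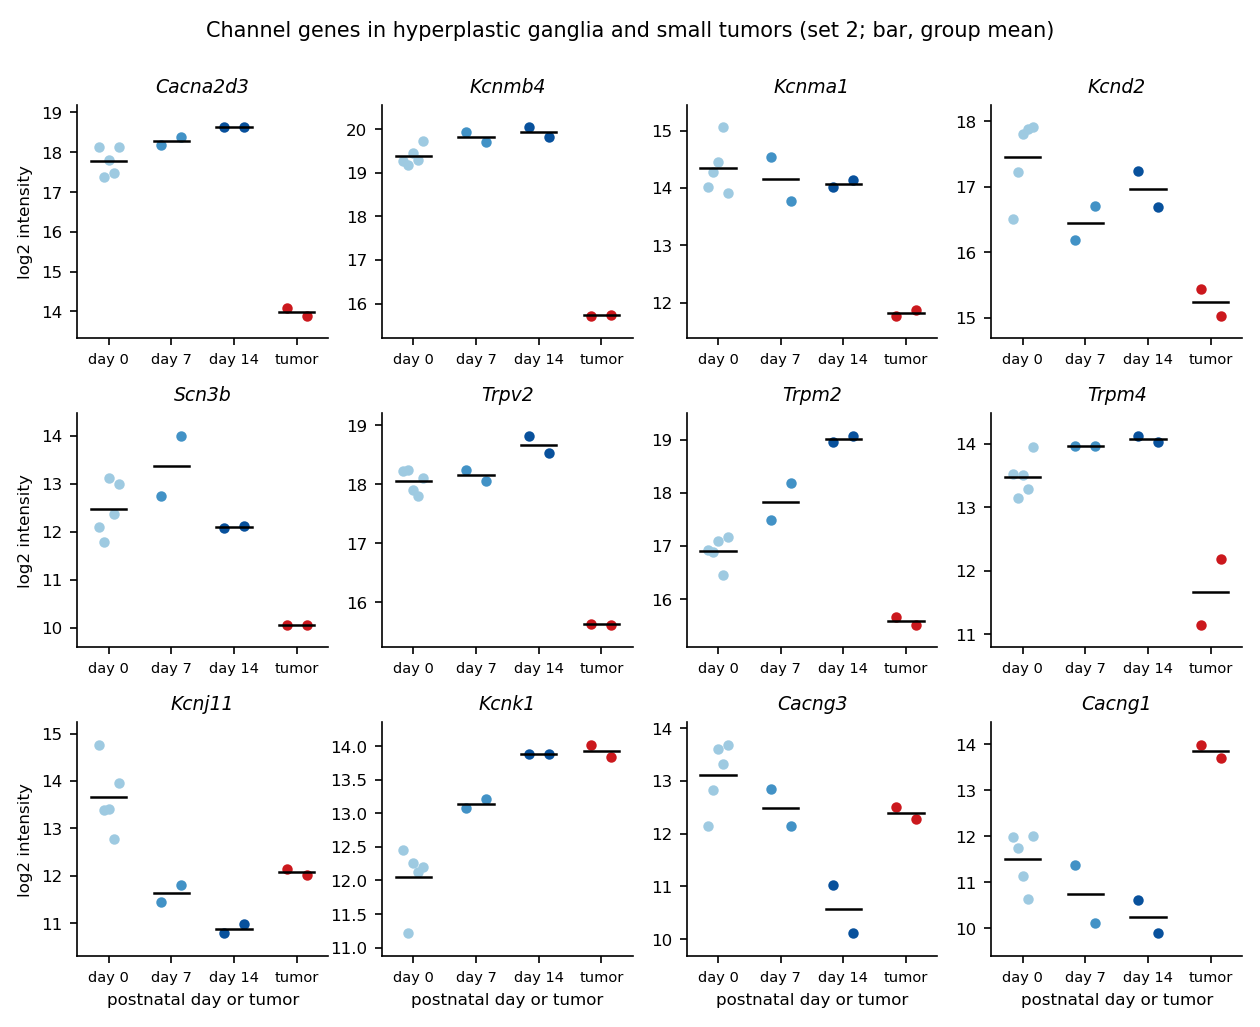
The log2 intensity of 12 channel genes on each of the 11 arrays of set 2, by ganglion stage and in tumors (points, arrays; bars, group means; each panel has its own vertical range). Cacna2d3, Kcnmb4, Kcnma1, Kcnd2, Scn3b, Trpv2, Trpm2 and Trpm4 have both tumors below every ganglion, and Cacng1 has both above. Among all probes, 48.8% did not overlap between tumors and day 0 ganglia and 79.1% between tumors and day 14 ganglia, in either direction. The share apart from all ganglia together was not counted.

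Of the 8 TRP channels 3 were lower in set 2 tumors, beside 18.9% of all probes lower against day 0 ganglia and 19.9% against day 14 ganglia. Trpv2 (probe 924808), a cation channel of neurons and macrophages with roles in axon growth in mouse, was 15.63 and 15.62 in tumors, against 18.23, 18.24, 17.91, 17.81 and 18.11 in day 0 ganglia and 18.82 and 18.53 in day 14 ganglia. The groups were far apart, at -2.43 ± 0.17 (5.4-fold, adjusted p = 4.24e-07) and -3.05 ± 0.20 (8.29-fold, 3.85e-07). Trpm2 (probe 335109), which opens on ADP-ribose and oxidative stress, read 16.92, 16.88, 17.10, 16.45 and 17.17 on day 0, 17.48 and 18.19 on day 7, 18.95 and 19.07 on day 14, and 15.67 and 15.52 in tumors. Day 14 ganglia were the highest and tumors the lowest, with no overlap. Trpm2 was 2.11 ± 0.23 higher on day 14 than on day 0 (adjusted p = 0.000334), and in tumors it was at -1.31 ± 0.23 against day 0 (0.000606) and -3.41 ± 0.27 against day 14 (1.66e-06). The fall against day 0 depended on the scaling: median centring of the arrays gave -1.11 (adjusted p = 0.0649), and unnormalized intensities gave -0.41 (0.53). Unnormalized intensities also ended the calls against day 0 of Trpm4 (-0.98, 0.152), Cacna2d2 (-0.46, 0.454), Kcnd2 (-1.34, 0.0665), Kcnj11 (-0.71, 0.303) and Cacnb4 (-0.26, 0.74). Trpm4, a calcium-activated channel that passes sodium, was 11.15 and 12.19 in tumors, against 13.14 to 13.95 in day 0 ganglia and 14.12 and 14.02 in day 14 ganglia (-1.81 ± 0.31, adjusted p = 0.000558, and -2.40 ± 0.37, 0.000271). Trpv2 was also 0.62 ± 0.17 higher on day 14 than on day 0 (adjusted p = 0.0345). That call was lost without day 0 replicate 3 (0.0818), under median centring (0.173), on unnormalized intensities (0.0653) and without limma's intensity trend (0.0757). It was also lost with only day 0 replicates 1 and 2 as the reference (0.101). Without either day 14 array it was lost too, with differences of 0.48 and 0.76. Trpc2, Trpc7, Trpm5 and Trpm7 were not called at any stage. Trpm7, a broadly expressed channel with a kinase domain that passes magnesium, was 15.63 and 15.58 in tumors and 14.94 to 16.64 in day 0 ganglia, a difference of -0.04 ± 0.34.

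Clcn7, a chloride-proton exchanger of lysosomes, was 15.95 and 15.91 in tumors, against 16.74 and 16.54 in day 14 ganglia, -0.71 ± 0.23 (adjusted p = 0.0252). The call was lost in every fit that left out 1 array of these groups, with adjusted p from 0.0636 to 0.153. Clcn3, a related endosomal exchanger, read 16.63 and 16.47 in tumors and 16.13 to 17.10 in day 0 ganglia, and Clcn2 and Clcn4-2 were not called either. Hcngp, the member that is no channel, read 14.16 and 14.20 in tumors and 13.88 to 14.37 in day 0 ganglia.

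Because both set 2 tumors share a specimen name with an array of set 1, all 35 arrays were also quantile normalized together to see whether the tumor against ganglion differences appeared on the set 1 arrays of small tumors. This sets levels across array sets, is a description with no test, and uses the same day 0 arrays on both sides. For Kcnmb4 the difference from day 0 ganglia was -3.37 on the set 2 tumor arrays and -4.16 on the 6 small tumors of set 1. Cacna2d3 was at -3.38 and -4.34, Trpv2 at -2.14 and -2.60, Trpm2 at -1.12 and -3.14, Trpm4 at -1.84 and -2.79, Kcnd2 at -1.94 and -2.95, Kcnj11 at -1.53 and -2.25, Cacna2d1 at 1.36 and 3.57, and Kcnk1 at 2.12 and 2.58, in the same order. For these genes the set 1 arrays stood at least as far from the ganglia. Kcnma1 was at -2.49 on set 2 tumor arrays and -1.12 on set 1, and Scn3b at -2.23 and -0.65. Kcne4 was at 2.27 on set 2 tumor arrays and 0.50 on set 1, and Cacng1 at 2.54 and 1.38. Cacna2d2 was at -1.25 on set 2 tumor arrays and 0.39 on set 1, or 0.31 on the set 1 arrays of the same names alone. Cacnb4 was at -1.03 on set 2 tumor arrays and 0.22 on set 1, or 0.09 on those of the same names. Kcna5 was at 1.34 on set 2 tumor arrays and -0.29 on set 1, but at 0.22 on those of the same names, so its sign on set 1 depended on which tumors were taken. The array set and the section taken cannot be told apart here.

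**Figure D4:**
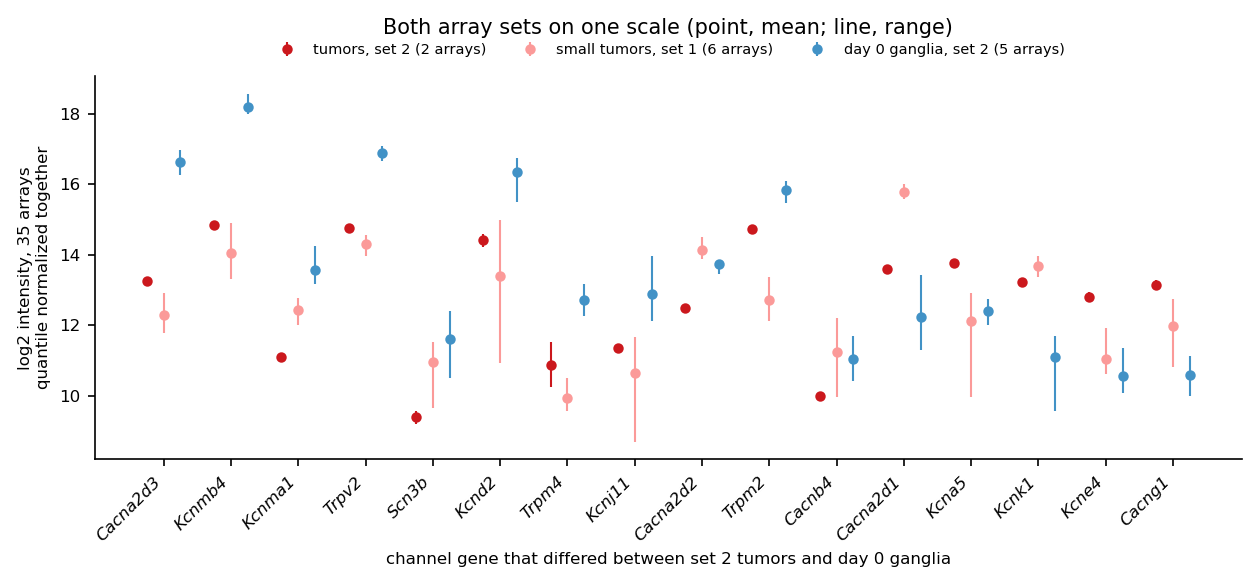
Shown are 16 of the 17 channel genes that differed between set 2 tumors and day 0 ganglia, on the scale of all 35 arrays normalized together: mean (point) and range (line) in the 2 tumor arrays of set 2, the 6 small tumors of set 1 and the 5 day 0 ganglia. For Cacna2d2 the set 2 tumors lie below and the set 1 small tumors above every day 0 ganglion.

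Markers of other cell types moved with these stages. Schwann cell and satellite glia markers had mean log2 levels of 14.86 to 15.97 on day 0, 16.18 to 16.36 on day 14 and 13.45 to 13.62 in set 2 tumors, where 3 of 6 measured were lower than on day 0 and 4 of 6 lower than on day 14. Of all probes 18.4% were higher and 18.9% lower in tumors than on day 0, and 19.9% were lower than on day 14. Macrophage markers were at 15.21 to 15.27 in tumors, against 12.91 to 13.51 in day 0 ganglia (4 of 5 higher), and adipocyte markers at 17.02 to 17.18 in tumors, against 14.01 to 14.93 (6 of 7 higher). Noradrenergic markers were at 17.34 to 17.41 in tumors, against 18.02 to 18.80 in day 0 ganglia, with 8 of 12 lower and 0 higher. Fibroblast markers were at 17.38 to 17.39 in tumors, against 17.78 to 18.87 (4 of 5 lower), and 0 of 2 endothelial markers were called. The part of these cell types in the channel differences was not tested.

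Across tumor size, Kcnmb4 and Kcne4 were the 2 channel genes that passed the F test over the 4 classes (adjusted p = 0.0152 and 0.0363, beside 2.25% of all probes). Kcnmb4 was lowest 13.30, median 13.92 and highest 14.73 in small tumors, 12.64, 13.10 and 13.31 in medium ones, 12.52, 12.94 and 13.57 in large ones, and 12.78, 13.11 and 13.49 in very large ones. The small tumors lay higher, and only in part within the range of each larger class. The differences from small tumors were -0.94 ± 0.21 in medium (adjusted p = 0.023), -0.98 ± 0.21 in large (0.0107) and -0.85 ± 0.21 in very large tumors (0.0174). The calls in large and very large tumors held when any 1 tumor was left out. That in medium tumors needed each of small replicates 1, 4 and 5 and of medium replicates 2 and 3 (0.0505 to 0.0749 with one of them left out). On unnormalized intensities the calls were lost in large (-1.15, adjusted p = 0.252), very large (-1.36, 0.0528) and medium tumors (-1.04, 0.484). The call in medium tumors was also lost under median centring (0.0518) and without limma's intensity trend (0.0578).

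Kcne4 was lowest 10.59, median 10.93 and highest 11.92 in small tumors, 8.70, 10.00 and 11.20 in medium ones, 7.69, 8.54 and 10.32 in large ones, and 7.59, 9.86 and 11.32 in very large ones. Large tumors did not overlap with small ones (-2.40 ± 0.51, adjusted p = 0.00935), and very large ones spread across both (-1.47 ± 0.51, 0.0945). Trpv2 was lowest 13.88, median 14.21 and highest 14.43 in small tumors, 12.35, 13.52 and 13.75 in large ones, and 12.73, 13.22 and 13.60 in very large ones. Neither larger class overlapped with small tumors, at -0.97 ± 0.26 in large (adjusted p = 0.039) and -0.99 ± 0.26 in very large ones (0.0228). The call in large tumors needed each of small replicates 3 to 6 and of large replicates 2 and 6 (adjusted p 0.0513 to 0.103 with one of them left out), and that in very large tumors each of small replicates 4 and 6 and of very large replicates 5 and 6 (0.052 to 0.0616). Non-overlap held for 0.988% of all probes between medium and small tumors, for 1.83% between large and small ones, and for 3.09% between very large and small ones.

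Cacna2d2 was higher in the largest class, at lowest 14.57, median 14.78 and highest 15.50 in very large tumors, against 13.80, 14.02 and 14.38 in small ones. These groups did not overlap, and the difference was 0.83 ± 0.20 (adjusted p = 0.0135). It missed the threshold under median centring (0.61, adjusted p = 0.075) and on unnormalized intensities (0.34, adjusted p = 0.648). Kcnq1, the delayed rectifier that Kcne subunits regulate, was lowest 10.12, median 10.88 and highest 11.12 in very large tumors, against 9.04, 9.60 and 10.43 in small ones (1.10 ± 0.31, adjusted p = 0.0361), with overlap. This call needed each of small replicates 2, 5 and 6 and every very large replicate but 2 (0.0546 to 0.0886 with one of them left out). It was also lost under median centring (1.01, adjusted p = 0.0673) and on unnormalized intensities (0.74, 0.377). Scn7a was lowest 8.16, median 9.68 and highest 10.68 in very large tumors, against 9.88, 11.35 and 12.16 in small ones (-1.57 ± 0.46, adjusted p = 0.0449), a call that needed every small replicate but 1 and each of very large replicates 2, 3, 5 and 6 (0.0604 to 0.124). Kcnd2 spread widely, at 8.87 to 12.27 in very large and 10.91 to 14.81 in small tumors, and its difference of -2.14 ± 0.70 was not called (adjusted p = 0.0765). Cacna2d3 (-0.86 ± 0.26, adjusted p = 0.0544) and Kcna5 (-1.65 ± 0.54, 0.0793) were not called between very large and small tumors either. Kcnma1, at 12.24 to 13.18 in very large and 12.01 to 12.77 in small tumors, differed by 0.18 ± 0.19 (adjusted p = 0.698). Without small replicate 1, 10 channel genes were called in very large against small tumors, where 2017 of all probes were called, against 1549 with all arrays.

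**Figure D5:**
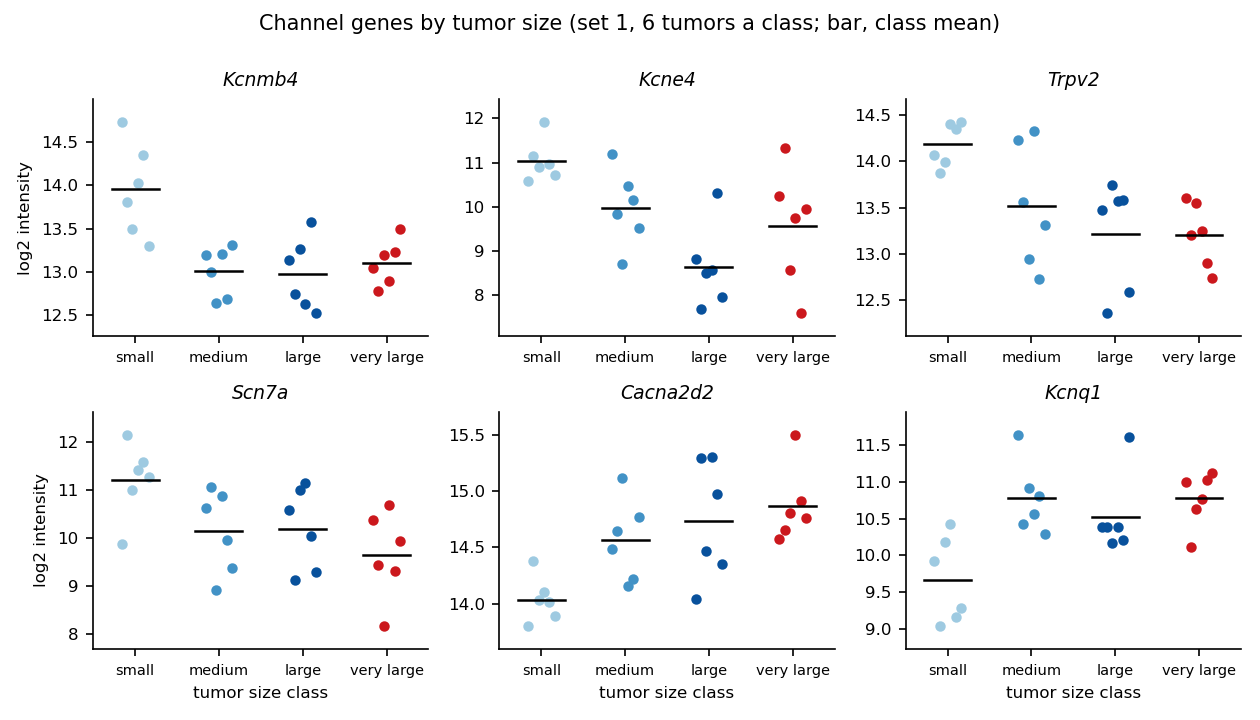
The log2 intensity of the 6 channel genes called between a larger class and small tumors, in each of 24 tumors of set 1 by size class (points, tumors; bars, class means; each panel has its own vertical range). Kcnmb4, Kcne4, Trpv2 and Scn7a have their highest class mean in small tumors, and Cacna2d2 and Kcnq1 their lowest.

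Other tissue in the sections and the age of the mice moved with size. The mean log2 level of muscle markers had a median of 17.03 in small, 10.03 in medium, 10.11 in large and 11.43 in very large tumors. Adipocyte markers had medians of 15.46, 13.44, 12.94 and 13.35, and glial markers of 12.85, 11.34, 10.49 and 10.38, in the same order of size. Of 6 glial markers 4 were lower in very large than in small tumors, beside 2.45% of all probes. The mean life span was 31.3, 37.2, 39.3 and 40.2 days in small, medium, large and very large tumors. When muscle and adipocyte marker levels entered the fit 0 channel genes were called in any size comparison, and with life span as a covariate again 0, where very large against small tumors had 41 called probes of 32996 with the tissue covariates and 272 with life span. Size cannot be told apart from age and tissue makeup in these classes. In very large tumors the uncalled difference of Kcnmb4 was -0.92 with the tissue covariates (adjusted p = 0.25) and -0.62 with life span (0.334). That of Trpv2 was -1.16 (0.236) and -0.97 (0.195), that of Scn7a -2.05 (0.221) and -1.37 (0.337), that of Cacna2d2 0.51 (0.567) and 0.75 (0.195), and that of Kcnq1 0.79 (0.629) and 1.51 (0.0545), in the same order of fits. These fits do not show that tissue or age accounts for the differences.

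Other genes of excitability were read from lists of pumps, further cation channels and channel partners. Among all probes, 18.4% were higher and 18.9% lower in set 2 tumors against day 0 ganglia, and 19.9% were lower against day 14. Of 17 pumps and exchangers 7 were measured. Against day 0 ganglia, as against day 14 ganglia, 5 were lower and 0 higher in set 2 tumors. Among these were the sodium pump beta subunit Atp1b1 (-2.17 ± 0.34, adjusted p = 0.000332) and the calcium pump Atp2b2 (-2.46 ± 0.39, 0.000297), both against day 0. Of 28 store-operated and other cation channels 8 were measured, and 1 was higher and 5 lower in tumors against day 0. The acid-sensing channel Asic2 was at -4.87 ± 0.22 (1.71e-08), a larger fall than that of any of the 46 channel genes, and at -6.16 ± 0.26 against day 14 (2.29e-08). The ryanodine receptor Ryr2, which releases stored calcium, was at -3.94 ± 0.22 (7.31e-08), and the inositol trisphosphate receptor Itpr1 at 2.38 ± 0.59 (0.00662).

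Of 20 partners that anchor or modulate channels 12 were measured, and 1 was higher and 5 lower in tumors against day 0 ganglia. Fgf14, which binds sodium channels at the axon initial segment, was at -3.20 ± 0.26 (adjusted p = 1.6e-06), and the spectrin Sptbn4, which holds channels there, at -1.28 ± 0.26 (0.00206). Rest, a repressor of neuronal genes in other cells, was at -1.75 ± 0.57 (0.0278), and Rem2, a GTPase that inhibits calcium channels, at 0.68 ± 0.21 (0.0192). In set 1, Dpp6, the auxiliary subunit of Kcnd channels, was higher by 1.34 ± 0.26 in very large than in small tumors (0.00276), while Rest was at -1.31 ± 0.35 (0.0274). Of all probes 18.9% were lower in tumors against day 0, and the lists were chosen with results of these data known.

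The promoters of 4 of these genes are shown because 3 were lower in set 2 tumors than in day 0 and day 14 ganglia (Kcnmb4, Kcnma1 and Cacna2d3) and 1 was higher than in day 0 ganglia (Kcne4, with 0.97 against day 14, adjusted p = 0.133), and because MYCN binds E-boxes, whose letters are CANNTG in general and CACGTG in the form MYC proteins favour. Each is the 250 bases before the annotated start in RefSeq (GRCm38.p6), on the strand of the gene, in lower case with every CANNTG in capitals. Kcnmb4 lies at chr10:116473524-116473773 (minus strand), Kcnma1 at chr14:24004206-24004455 (minus), Cacna2d3 at chr14:29721865-29722114 (minus) and Kcne4 at chr1:78816661-78816910 (plus).
Kcnmb4: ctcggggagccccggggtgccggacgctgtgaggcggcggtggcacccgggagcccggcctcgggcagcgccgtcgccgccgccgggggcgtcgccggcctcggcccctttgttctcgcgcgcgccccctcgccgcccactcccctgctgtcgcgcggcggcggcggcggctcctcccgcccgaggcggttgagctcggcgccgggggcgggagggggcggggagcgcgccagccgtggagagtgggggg
Kcnma1: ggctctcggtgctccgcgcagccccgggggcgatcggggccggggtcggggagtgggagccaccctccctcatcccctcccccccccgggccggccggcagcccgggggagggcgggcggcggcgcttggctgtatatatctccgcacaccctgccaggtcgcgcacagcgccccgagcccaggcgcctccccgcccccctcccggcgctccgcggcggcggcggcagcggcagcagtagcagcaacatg
Cacna2d3: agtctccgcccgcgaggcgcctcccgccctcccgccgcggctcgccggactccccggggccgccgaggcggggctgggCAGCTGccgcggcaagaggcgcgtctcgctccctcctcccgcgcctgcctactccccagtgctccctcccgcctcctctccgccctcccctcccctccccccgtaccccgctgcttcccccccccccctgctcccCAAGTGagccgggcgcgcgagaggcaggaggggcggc
Kcne4: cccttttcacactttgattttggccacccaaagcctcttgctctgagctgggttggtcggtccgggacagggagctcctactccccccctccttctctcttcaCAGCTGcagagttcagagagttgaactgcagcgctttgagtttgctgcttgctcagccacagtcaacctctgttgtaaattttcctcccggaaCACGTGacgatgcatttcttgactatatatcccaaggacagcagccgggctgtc

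Kcnmb4 and Kcnma1, both subunits of the BK channel, have promoters of 83.6% and 79.2% G and C with no CANNTG in this window, where the median of all promoters was 52.4%. Cacna2d3 has 80.0% and 2 CANNTG, and Kcne4 has 53.2% and 2, of which 1 is CACGTG. RefSeq promoters were matched for 35 of the 46 channel genes, with 46 starts. Of these 46 promoters 4 held CACGTG (8.7%, of Kcne4, Clcn7, Clcn4-2 and Trpm7), beside 6.02% of all 32851 promoters, and 31 held CANNTG (67.4%), beside 66.2%. The search ran on the strand of the gene and covers both strands, because both motifs read the same on either one. Every CACGTG is also a CANNTG. The shares were close to those of all promoters.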

How the data were processed

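RNA was read on 35 single-colour arrays. For set 2 the authors deposited intensities quantile normalized between its 11 arrays, per the labels and the text deposited with them. In that table each rank holds the highest intensity of the 11 arrays at that rank (tested at a tolerance of 1e-06), so levels lie above those of single arrays. For set 1 the deposited intensities were not normalized between arrays (array medians 557.79 to 1292.16) and were quantile normalized here. The sources used here name no image software or background correction, and intensity over background limits precision. Intensities under the 1st percentile of a set were raised to it (168.105 in set 1, 878.91 in set 2), log2 was taken, and 16 probes of set 1 without a value on every array were left out.

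Each set was fitted over all its arrays (limma 3.58.1, R 4.3.3, lmFit and eBayes with an intensity trend, two-sided, Benjamini-Hochberg adjusted over 12688 or 32996 probes). The script was tested on simulated data. Alternatives were the normalization, the floor, a filter on dim probes, the trend, the day 0 specimen series, covariates and left-out arrays. Named are the channel genes called, up to 10 each way per comparison, those with the smallest F test p of their family, and a list of key channels. A few genes are not reported here by name. Members and lists were chosen with earlier results of these data known. Motifs and figures were made with Python 3.11.15 and matplotlib 3.10.9.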

Additional observations from a re-analysis of the deposited data

Results flagged for a closer look

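Of 230 gene and group combinations with 5 or 6 arrays, 15 held 1 array that lay far from the others of its group by Dixon's criterion, which chance alone gives in about 1 of 20 groups. Very large replicate 4 had 4 of them: Cacna2d2 at 15.50 (others 14.57 to 14.91), Cacng2 at 7.95 (10.14 to 10.95), Clcn4-2 at 11.32 (12.68 to 13.06) and Trpm5 at 11.73 (9.99 to 10.46). Medium replicate 3 had Cacng2 at 9.64 (others 10.85 to 11.50) and Kcna5 at 9.01 (11.11 to 11.90), and medium replicate 4 had Kcnc1 at 12.15 (12.68 to 12.92). Small replicate 1 had Kcna5 at 9.95 (others 12.08 to 12.91). Among large tumors, Kcnq1 was 11.60 in replicate 6 (others 10.17 to 10.39), Scn3b was 8.69 in replicate 2 (10.33 to 11.18) and Trpm5 was 8.65 in replicate 5 (10.00 to 10.20). Scn3b was 8.37 in very large replicate 3 (others 10.30 to 10.52). In day 0 ganglia, replicate 2 had Kcnj14 at 11.50 (others 9.78 to 9.91) and Kcnk1 at 11.21 (12.13 to 12.45), and replicate 4 had Cacna2d2 at 14.19 (14.56 to 14.63). Without very large replicate 4 the Cacna2d2 call against small tumors was kept.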

How the results depend on the processing

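Of 49 calls of a channel gene in a comparison, 18 were kept in every alternative tried, and 548 of 695 alternatives kept the call. In these, 0 reversed the direction. For some calls only the left-out arrays that ended them are named above, though other settings ended them too. Leaving out 1 array gave 13 to 17 called channel genes in tumors against day 0 ganglia, 9 to 10 in tumors against day 14, 2 to 10 in day 14 against day 0, 0 to 8 in day 7 against day 0, and 15 to 21 over all stages. In set 1 it gave 2 to 10 in very large, 2 to 4 in large and 0 to 1 in medium against small tumors, and 0 to 3 over all sizes. Where a group of 2 lost an array, the remaining one was taken to vary like the other groups.

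On the intensities as deposited, unnormalized, the all-probe median shifted by 0.92 in tumors against day 0, 0.24 against day 14 and 0.71 on day 14 against day 0. The called genes then were 11 higher and 5 lower in tumors against day 0, 3 and 6 against day 14, and 9 and 2 (11 in all) on day 14 against day 0. Of all 12688 probes, 3958 were then higher and 423 lower in tumors against day 0, and 1067 and 953 against day 14. On day 14 against day 0 these were 1076 and 21. Unnormalized intensities left 1 channel gene on day 7, beside 37 of all probes. They left 3 in very large (0 higher), 1 in large and 0 in medium tumors, and 1 over all sizes. Of all 32996 probes these comparisons had 552 (25 higher), 176, 114 and 271. With arrays centred on their medians, 1 was called on day 7, 4 in very large tumors (0 higher) and 0 in medium ones. Of all probes these had 22, 1137 (222 higher) and 285. With only day 0 replicates 3 to 5, 11 were called on day 14 and 10 on day 7. Of all probes 3504 were then called on day 14 and 3142 on day 7, against 1293 and 252 with all 5. Without the intensity trend, 3 were called in very large and 0 in medium tumors, and 1 over all sizes, beside 964, 173 and 403 of all probes. With life span, or with muscle and adipocyte levels, as covariates, 0 were called in very large, large and medium tumors and over all sizes by limma. The cause was not tested. No paired analysis was possible because replicate numbers were given in accession order and pair nothing.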
